A study of Homo sapiens with 8 samples.

Results

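CPR20 is the cisplatin-resistant derivative with the lowest number in its name among 4 derivatives of A2780. This line comes from a human ovarian carcinoma, grows as a monolayer and is widely used to study platinum drugs. It was described from 2 arrays of 8 in all, both of which carried CPR20 in Cy5 and the sensitive parental line, named CPR00, in Cy3. The other 6 arrays held CPR40, CPR55 and CPR70, with 2 arrays each against the same parental line and with the dyes in the same order. Per the labels, all cells were A2780, were grown in RPMI1640 medium with 10% fetal calf serum under ordinary conditions, and gave total RNA by Trizol. The labels name no drug in the medium, do not say what the number in a derivative's name stands for, and do not say whether a derivative's 2 arrays came from separate cultures. The errors given here may therefore be technical, and the parental line's own spread is left out of every comparison with it. Each derivative is a single line.

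Cisplatin enters cells in part through copper transporters, reacts with water, and binds neighbouring purines in DNA. The adducts stall replication and transcription and activate p53, whose target CDKN1A halts the cell cycle. Resistant lines are known to differ from their parents in drug uptake and export, in thiol defence, in DNA repair and damage tolerance, in death signalling, and often in adhesion and matrix genes that have no direct tie to the drug.

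Of 14427 spots that carry a clone, 13743 were found on the replicate 1 array of CPR20 and 14205 on the replicate 2 array, against 12759 to 14373 on the other 6 arrays. The median spot intensity was 498.4 and 300.1 in the CPR20 channel and 390.1 and 211.4 in the parental channel, for replicates 1 and 2. Spots with no DNA had medians of 258.6 and 137.9 in the CPR20 channel and of 265.6 and 91.2 in the parental channel. A channel was counted as above background where it exceeded the empty spots of its array by 2.6 median absolute deviations, which 41.3% and 55.1% of clone spots did for CPR20 and 33.9% and 39.5% for the parental line. Among markers of the labelled cells, vimentin (VIM) was above background on both arrays in both channels and the keratin KRT18 on both arrays in the CPR20 channel. PAX8, WT1, EPCAM, KRT19, MSLN and EMX2 were above it on neither array in either channel. None of 10 leukocyte markers was above background on both arrays. Of 9 fibroblast markers, 4 were above background on both arrays in the parental channel (COL3A1, COL1A2, LUM and PDGFRB) and 2 in the CPR20 channel (COL3A1 and THY1). Of 6 endothelial markers VWF was, and of 5 melanocyte markers TYR was in the parental channel. The part of these markers in the results was not tested. The values of the fibroblast markers are given with the matrix genes.

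The question the arrays address is which genes differ in RNA level between the resistant derivative and the sensitive line. Most of the array had small ratios: the median absolute log2 ratio of CPR20 over the parental line was 0.22, a value on the log2 scale after loess normalisation, over 13186 clones (called probes from here on). Against that, the leading genes moved far. The caveola component CAVIN2 and the microtubule-bound ubiquitin ligase MID1 were among the large rises, and the matrix link protein HAPLN1 and the procollagen processing factor PCOLCE among the large falls. Calls were made where limma's moderated test, fitted to all 8 arrays as 4 derivative means, gave an adjusted p (Benjamini-Hochberg, over all probes) under 0.05. By that rule 68 probes were called, 0.516% of those tested, 44 of them higher in CPR20 (0.334%) and 24 lower (0.182%). With the array set (the replicate number) as a block, the same test called 169 probes, which include 65 of the 68. Without the replicate 1 array of CPR20 it called 19, 12 of them among the 68, and without the replicate 2 array it called 5, namely CAVIN2, TM4SF1, HAPLN1, PCOLCE and FLJ20128.

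The called probes stood for 55 named genes and 12 clones without a symbol. Their absolute log2 ratios ran upward from 1.24, with a median of 2.17, as measured ratios after the offset. Of the 68, 67 had a value on both CPR20 arrays, and in all 67 the values had the same sign, as did 56.55% of the 12486 probes of the whole array with both values. The test selects probes whose arrays agree, so this count describes the calls and does not bear on them. In 23 of the 44 higher probes the parental channel was at background on both arrays, and in 6 of the 24 lower probes the CPR20 channel was. For these the fold is given as a lower bound, written "at least", from the brighter channel against the background level, and that bound can lie below 2. A channel above background on 1 of the 2 arrays was taken as measured, which touches the parental channel of 16 higher calls and the CPR20 channel of 7 lower calls; their log2 values rest in part on a reading near background. In this kind of measurement, fewer cells of a type and less RNA per cell cannot be told apart. Because the derivative was in Cy5 on every array, a dye effect of a clone cannot be told apart from a change against the parental line.

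**Figure D1:**
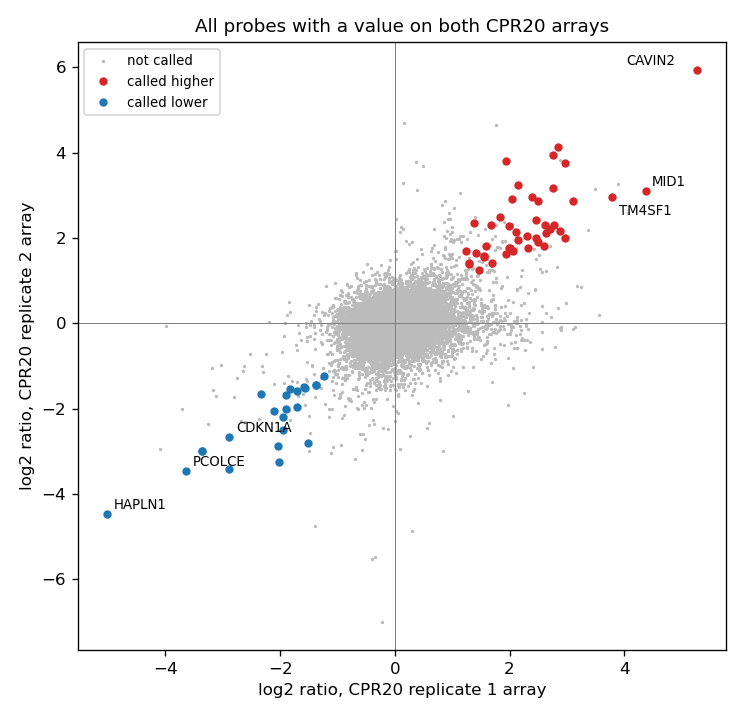
Log2 ratio of CPR20 over the parental line on the replicate 1 array (x axis) and the replicate 2 array (y axis), 1 point per probe with both values. Called probes lie in the upper right (red, higher) and lower left (blue, lower) corners, while several probes with a large value on 1 array and a value near 0 on the other were not called.

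Large falls were found among genes of the extracellular matrix. HAPLN1 (clone 531739, listed under its older name CRTL1) anchors hyaluronan to proteoglycans such as aggrecan. Its spot read 374.2 and 708.9 in the CPR20 channel and 7285 and 11963 in the parental channel of replicates 1 and 2, before normalisation. The log2 ratios were -5.01 and -4.46, and HAPLN1 fell by 4.74 in log2 ratio (± 0.28, the SE of the fit, n = 2 arrays; limma's adjusted p = 0.00107). The parental channel was above background on both arrays, and the CPR20 channel on the replicate 2 array only. A further, dimmer HAPLN1 clone stood at -2.48 (adjusted p = 0.0570), below 0 on both arrays but not called.

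PCOLCE binds the carboxy-terminal propeptide of fibrillar procollagens and speeds its removal. Its log2 ratios were -3.64 and -3.46 in CPR20, and it fell by 3.55 (± 0.23, adjusted p = 0.00138 in limma). Its spot remained above background in the derivative, at 1076 and 1394 against 7088 and 11378 in the parental line. Of 35 genes listed as matrix proteins, 2 were called lower, HAPLN1 and PCOLCE, and 0 higher, with a median log2 ratio of 0.05 against -0.0007 over all 9841 genes, of which 34 were called higher and 20 lower. The fibrillar collagen gene COL3A1 had log2 ratios of -3.25 and -2.36 (mean -2.80, adjusted p = 0.0946) and was not called, but passed with the array set as a block (adjusted p = 0.0110). With the block 5 matrix proteins were called lower and 0 higher, HAPLN1, PCOLCE, COL3A1, COL1A2 and MFAP2, against 81 higher and 53 lower over all genes. COL5A2, a minor fibril collagen, stood at 1.00 and 2.25 and was not called either (adjusted p = 0.197). Markers of fibroblasts were mostly lower too: the 9 measured had a median log2 ratio of -0.42, with 2 of the 9 above 0. In limma 0 were called (2 lower with the block, COL3A1 and COL1A2). Beside 6.13% of all genes above 0 and 4% below at an unadjusted p under 0.05, 1 marker was above 0 and 3 were below. Their summed intensity before normalisation was 11600 and 3810 in the CPR20 channel against 42030 and 7352 in the parental channel. COL3A1 alone read 7156 and 1341 in the CPR20 channel and 34207 and 5055 in the parental channel. The sums thus rest largely on this gene and do not show a fall of the markers in general. COL3A1 and COL1A2 are also on the matrix list. Of the 9 markers, 3 (COL1A1, DCN and FAP) were at background in both channels. The part of these markers in the fall of the matrix genes was not tested.

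Among 25 matrix proteases and their inhibitors 1 gene was called. MMP10, the stromelysin that cleaves proteoglycans and fibronectin, had log2 ratios of 1.84 and 2.49 and rose by 2.17 (± 0.33, adjusted p = 0.0398 in limma). Its relative MMP3 stood higher, at 3.89 and 3.28, with the parental channel at background (at least 5.80-fold) but an adjusted p of 0.106. The CPR40 arrays stood far apart for MMP3, at 0.27 and 4.17. TIMP1, an inhibitor of both proteases, stood at 1.45 and 2.08 (adjusted p = 0.214, and 0.0415 with the block). The list's median was 0.25, and with the block 3 of its genes were called higher, MMP10, TIMP1 and the cysteine protease inhibitor CST3. SERPING1, the inhibitor of complement C1 esterase, fell by 1.83 (± 0.20, adjusted p = 0.0117), with ratios of -1.71 and -1.95. Its other clone was at background in both channels.

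At the cell surface and its caveolae a few genes that were at background in the parental channel were high in the derivative. CAVIN2 (clone 128058, listed as SDPR) binds phosphatidylserine and shapes caveolae, the flask-like pits of the plasma membrane. Its spot read 11291 and 22174 in the CPR20 channel against 115.4 and 209.7 in the parental channel, where it was not above background. The log2 ratios were 5.26 and 5.94, and CAVIN2 rose at least 22.0-fold (log2 5.60 ± 0.33, adjusted p = 0.00107 in limma). CAVIN1, which builds the caveolar coat with it, stood at 1.40 and 0.76 and was not called (adjusted p = 0.280). ANXA1, a membrane-binding annexin, stood at 1.11 and 1.57 (adjusted p = 0.106). Of 20 caveola and annexin-related genes, 1 was called higher and 1 lower, with a median of -0.04.

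TM4SF1, a tetraspanin-like surface protein first described as a tumour antigen, had log2 ratios of 3.79 and 2.96 in CPR20. It rose at least 2.67-fold (log2 3.38 ± 0.25, adjusted p = 0.00230 in limma), with the parental channel at background. It was the 1 call among 28 integrins and surface proteins, whose median was 0.07. CD99, an adhesion glycoprotein, stood at -2.80 and -1.73 with an adjusted p of 0.0550, and was called lower with the block (adjusted p = 0.0302). S100A11, the calcium-binding partner of annexins counted with the caveola list, had ratios of -2.90 and -3.41. It fell at least 5.98-fold (log2 -3.15 ± 0.26, adjusted p = 0.00354). The other S100A11 clone was at background in both channels on both arrays and gives no measure of the change.

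Of the genes that serve the cytoskeleton, 1 on the actin list was called. TMSB10, a thymosin that holds actin monomers, had ratios of 3.10 and 2.86 and rose at least 4.99-fold (log2 2.98 ± 0.25, adjusted p = 0.00664 in limma; the fit lacks the CPR55 replicate 1 array, where its spot was not found). It was the 1 call among 29 actin cytoskeleton genes, with a list median of 0.22 and 23 of 29 above 0. Ezrin (EZR), which ties actin to the membrane, stood at 1.37 and 1.01 (adjusted p = 0.0708, and 0.0426 with the block, where 4 genes of the list were higher and 0 lower). Other calls with a structural role, set beside them without a list, are MID1, FLNC and AKAP6. MID1, which binds microtubules and targets the catalytic subunit of PP2A for degradation, had ratios of 4.37 and 3.10 and rose by 3.73 (± 0.52, adjusted p = 0.0321), with the parental channel above background on the replicate 1 array only. FLNC, the muscle filamin that crosslinks actin, fell at least 1.80-fold, with ratios of -1.52 and -2.79 (adjusted p = 0.0321). AKAP6, an anchor for protein kinase A at the nuclear envelope of muscle cells, rose at least 2.10-fold, with ratios of 2.50 and 2.87 (adjusted p = 0.0117).

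Of secreted signals and their receptors, a small number passed in each class. SLIT2, the guidance ligand of ROBO receptors, had ratios of 2.05 and 2.93 and rose at least 3.10-fold (log2 2.49 ± 0.26, adjusted p = 0.0100 in limma). IGFBP3, which binds insulin-like growth factors in the medium, had ratios of 2.15 and 3.26 and rose at least 2.05-fold (log2 2.70 ± 0.42, adjusted p = 0.0445). No other of the 53 growth factors and receptors measured was called (median 0.02), and IGFBP3 lost its call with the array set as a block (adjusted p = 0.0575). The ErbB ligand NRG1 stood at 4.07 and 2.59 (adjusted p = 0.0606) and FGF2 at 1.69 and 1.34 (adjusted p = 0.0507), both just outside the threshold and both called higher with the block (NRG1 adjusted p = 0.00200, FGF2 adjusted p = 0.0238).

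SFRP1, a secreted antagonist of Wnt ligands, had ratios of -2.04 and -2.87 and fell by 2.45 (± 0.38, adjusted p = 0.0464 in limma). No other of 39 genes of Wnt and TGF-beta signalling was called (median -0.12), and SFRP1 too lost its call under the block (adjusted p = 0.0581), under which the list had 1 gene higher and 3 lower. TCIM, a regulator of Wnt output, stood at -4.10 and -2.95 but was not called (adjusted p = 0.165, and 0.0472 with the block), and its CPR55 arrays stood at -4.42 and -0.42. Of receptors, the chemokine receptor CCR1 rose at least 2.55-fold, with ratios of 2.88 and 2.17 (adjusted p = 0.0321). The lysophosphatidic acid receptor listed as EDG2 rose at least 2.06-fold, with ratios of 1.68 and 2.31 (adjusted p = 0.0346).

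On a list of 20 measured p53 targets, the calls were lower. CDKN1A encodes p21, which inhibits cyclin-dependent kinases. Its log2 ratios were -2.88 and -2.66, with the CPR20 channel at background on both arrays and the parental channel at 1702 and 455.0. It fell at least 2.89-fold (log2 -2.77 ± 0.41, adjusted p = 0.0393 in limma). Its other clone had a value on 1 CPR20 array, -2.57, and was not called. PHLDA3, a p53 target that keeps AKT from the membrane, had ratios of -1.94 and -2.49 and fell by 2.22 (± 0.24, adjusted p = 0.0104). These were the 2 calls on the list, none of which was higher, and 7 of the 20 genes lay above 0. IGFBP3, which p53 also induces, stood on another list and was called higher. PMAIP1, a further gene that p53 induces, was not called but stood at 1.22 to 1.60 in CPR20 over 22 alternative ways of processing. The median of the list was -0.16 against -0.0007 over all genes. The phosphatase PPM1D stood at -1.22 and -1.23 (adjusted p = 0.145) and the stress protein SESN2 at -0.29 and -1.15 (adjusted p = 0.372). Both CPR20 arrays placed PPM1D and SESN2 below 0.

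The called genes of another stress response were lower too. ATF5 is a transcription factor whose translation rises when eIF2alpha is phosphorylated, and its ratios were -1.90 and -1.69. It fell by 1.79 (± 0.24, adjusted p = 0.0303 in limma). WARS1, the cytosolic tryptophanyl-tRNA synthetase, had ratios of -1.37 and -1.44 and fell by 1.41 (± 0.20, adjusted p = 0.0344). They were the 2 calls among 23 genes of the amino acid and unfolded protein responses, with 6 of 23 above 0. The list's median was -0.02 on the replicate 1 array and -0.48 on the replicate 2 array, so the arrays differed on the list as a whole. P8, described on the array as the p8 protein (candidate of metastasis 1), a small chromatin protein induced by stress, fell by 2.07 (± 0.22, adjusted p = 0.0113), with ratios of -1.95 and -2.19. The serine synthesis enzyme PHGDH stood at -0.62 and -0.91 and was not called (adjusted p = 0.205).

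Other regulators of transcription and RNA were called in both directions. CITED2, which competes for the CBP and p300 coactivators, had ratios of 2.77 and 2.30 and rose by 2.53 (± 0.21, adjusted p = 0.00336 in limma). Of 48 homeobox and developmental factors, with a median of -0.02, CITED2 alone was called. The eye and neural factor PAX6 stood at 3.36 and 2.19 with the parental channel at background (adjusted p = 0.0847). With the block the list had 2 genes higher and 1 lower. SATB1, which folds chromatin at AT-rich attachment sites, fell by 2.08 (± 0.28, adjusted p = 0.0303), with ratios of -2.11 and -2.04. MBNL2, a muscleblind splicing regulator, fell at least 1.52-fold, with ratios of -1.83 and -1.54 (adjusted p = 0.0323), while its other clones were at background in both channels where they were found.

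Several called genes serve lipids or membranes, and they are set beside each other here without a list or a test. ATP11B flips phospholipids across membranes of the endosome and Golgi, and had 2 clones on the array. The brighter clone had ratios of 2.85 and 4.14 and rose by 3.49 (± 0.52, adjusted p = 0.0379 in limma). The other clone had ratios of 2.40 and 2.96 and rose by 2.68 (± 0.24, adjusted p = 0.00453), so both clones of the gene were called in the same direction. ABCA3, the lipid exporter of lamellar bodies, had ratios of 2.47 and 2.43 and rose by 2.45 (± 0.25, adjusted p = 0.00899). FADS2, which inserts a double bond into polyunsaturated fatty acids, rose by 2.20 (± 0.32, adjusted p = 0.0351), with ratios of 2.50 and 1.90. It was the 1 call among 27 sterol and fatty acid genes, of which 22 lay above 0 (median 0.24). ACLY, which supplies cytosolic acetyl-CoA for lipid synthesis, stood at 0.53 and 0.76 (adjusted p = 0.318).

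CRABP2, which carries retinoic acid to its nuclear receptor, had ratios of 2.33 and 1.77 and rose by 2.05 (± 0.21, adjusted p = 0.0100 in limma). It was the 1 call among 26 genes of retinoid and aldehyde metabolism (median -0.14). The retinal-oxidising enzyme ALDH1A1 stood at 1.77 on the replicate 1 array and 4.66 on the replicate 2 array, which are far apart, and was not called (adjusted p = 0.0865). With the block 1 gene of the list was higher, CRABP2, and 1 lower, CYP1B1, which oxidises steroids and other lipophilic compounds (-1.94 and -1.40, adjusted p = 0.0274).

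Carriers long studied for cisplatin were measured for 17 genes, counted here with ATP11B, which is the 1 called. The median of the list was 0.03, and 9 of 17 lay above 0. SLC31A1, the copper transporter CTR1 through which cisplatin can enter, had ratios of -0.82 and -0.82 (mean -0.82 ± 0.27, adjusted p = 0.326 in limma). ABCC1, an exporter of glutathione conjugates, stood at 0.68 and 0.79 (mean 0.74 ± 0.21, adjusted p = 0.259). Both arrays agreed on the sign for SLC31A1 and ABCC1, and neither gene passed. The copper-exporting ATPases ATP7A and ATP7B stood at 0.50 and -0.14, with both channels at background on both arrays. ABCB1, the drug exporter P-glycoprotein, stood at 1.74 and 0.43, also with both channels at background, so that no fold is given. ABCC2, the exporter most often tied to cisplatin conjugates, stood at -0.08 and 0.01 (adjusted p = 0.985).

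**Figure D2:**
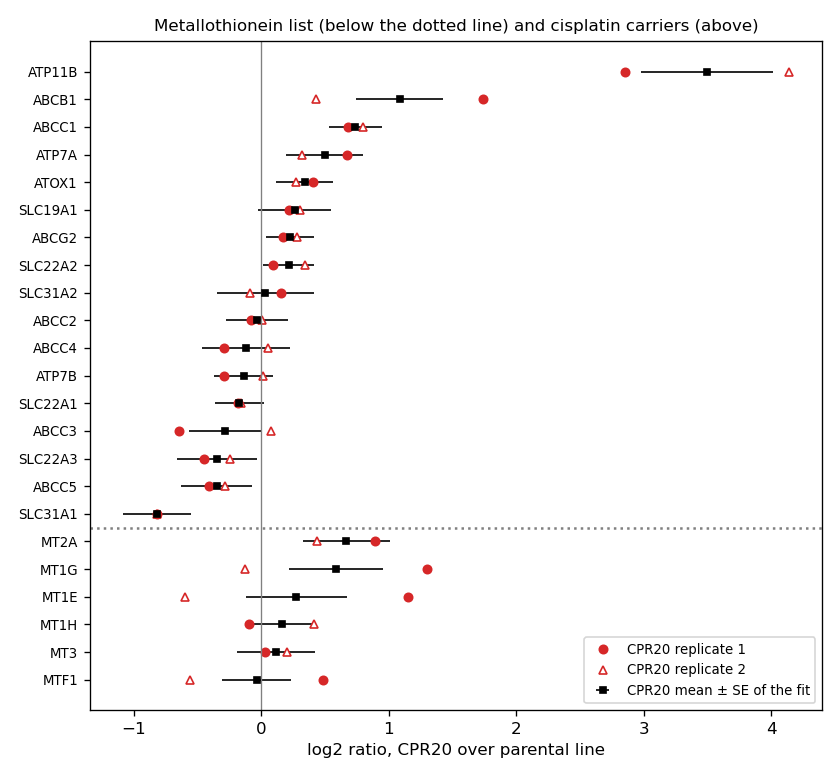
Log2 ratio of CPR20 over the parental line for the 17 measured cisplatin carriers (above the dotted line) and the 6 measured genes of the metallothionein list (below it). Red symbols are the 2 CPR20 arrays, black squares the fitted mean with its SE, and ATP11B is the 1 gene past the threshold.

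Metallothioneins bind zinc, copper and platinum through their cysteines. Of 6 measured genes on that list 0 were called in limma, and 0 had an unadjusted p under 0.05. MT2A stood at 0.89 and 0.44 (adjusted p = 0.611), MT1G at 1.30 and -0.13 (adjusted p = 0.710), MT1E at 1.15 and -0.60, MT1H at -0.10 and 0.41, MT3 at 0.03 and 0.20, and their activator MTF1 at 0.48 and -0.56. The replicate 1 array was above the replicate 2 array for MT2A, MT1G, MT1E and MTF1, and 5 of the 6 genes had both channels at background. Clones of this family can also bind transcripts of its other members.

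Among 38 genes of glutathione and thiol redox 0 were called in limma, 8 with an unadjusted p under 0.05 (6 above 0 and 2 below). That cut was passed by 10.13% of all genes (6.13% of all genes above 0, the rest of the passing genes below), and counts at it for this list and those that follow are read against these shares. GSTP1, the glutathione transferase most often measured in platinum studies, stood at 1.00 and 0.46 (adjusted p = 0.260). GSTO1 stood at 0.70 and 0.90 (adjusted p = 0.171). The membrane-bound transferase MGST1 stood at 3.18 and 0.87 and was not called (adjusted p = 0.209). Among 29 genes of mismatch and excision repair 0 were called in limma and 3 had an unadjusted p under 0.05. Among these, UNG, which removes uracil from DNA, stood at 1.12 and 1.00 (adjusted p = 0.0823), and MSH6, which recognises mismatched bases, at -0.44 and -1.13 (adjusted p = 0.278). Among 22 genes of crosslink and recombination repair 0 were called, with medians of -0.08 and 0.01 on the arrays and 2 genes at an unadjusted p under 0.05.

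The lists that follow had no called member without the block. Proteasome genes had medians of 0.28 and 0.26 on the CPR20 arrays, with 22 of 28 above 0 and 4 at an unadjusted p under 0.05. PSMB4, a subunit of the proteasome core, stood at 0.86 and 0.43 (adjusted p = 0.346). Ribosomal protein genes had medians of -0.05 and -0.31, with 14 of 66 above 0 and 4 at an unadjusted p under 0.05, RPS23 the lowest in p at -0.72 and -0.72 (adjusted p = 0.277). Interferon-stimulated genes had medians of 0.50 and 0.14, with 25 of 33 above 0. Of the 33, 9 were above 0 and 1 below at an unadjusted p under 0.05 in limma, beside 6.13% and 4% of all genes. PSMB9, the inducible subunit of the immunoproteasome, stood at 1.01 and 0.93 (adjusted p = 0.108), while BST2, which tethers viruses, stood at -1.62 and -1.43 (adjusted p = 0.253, and 0.0472 with the block). With the block the list had 1 gene higher, IFITM2, and 1 lower, BST2.

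Antigen presentation genes had medians of 0.0012 and 0.35, with 8 above 0 and 2 below at an unadjusted p under 0.05, and B2M, the light chain of class I molecules, at 1.01 and 1.10 (adjusted p = 0.189). With the block 1 of them was called higher, HLA-G. The median over all genes was 0.01 on the replicate 1 array and -0.004 on the replicate 2 array. Epithelial genes (25 measured), mesenchymal transition genes (17), heat shock proteins (20), glycolysis (25), respiratory chain (52), replication and cell cycle genes (55), cell death regulators (31) and chromosome X antigens (17) had 0 calls each in limma. The numbers at an unadjusted p under 0.05 in that order were 3, 6, 2, 5, 2, 5, 3 and 3, against 10.13% of all genes. With the block 2 epithelial genes (CLDN16 and KRT18) and 1 of glycolysis (PFKP) were called higher, and the other lists of this group again had 0 calls in limma. The claudin CLDN16 stood at 2.88 and 3.82 (adjusted p = 0.0750, and 0.0137 with the block), the epithelial repressor SNAI2 at -1.49 and -2.99 (adjusted p = 0.109) and the cyclin CCND2 at -1.52 and -1.35 (adjusted p = 0.130). All 3 had the same sign on both CPR20 arrays.

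**Figure D3:**
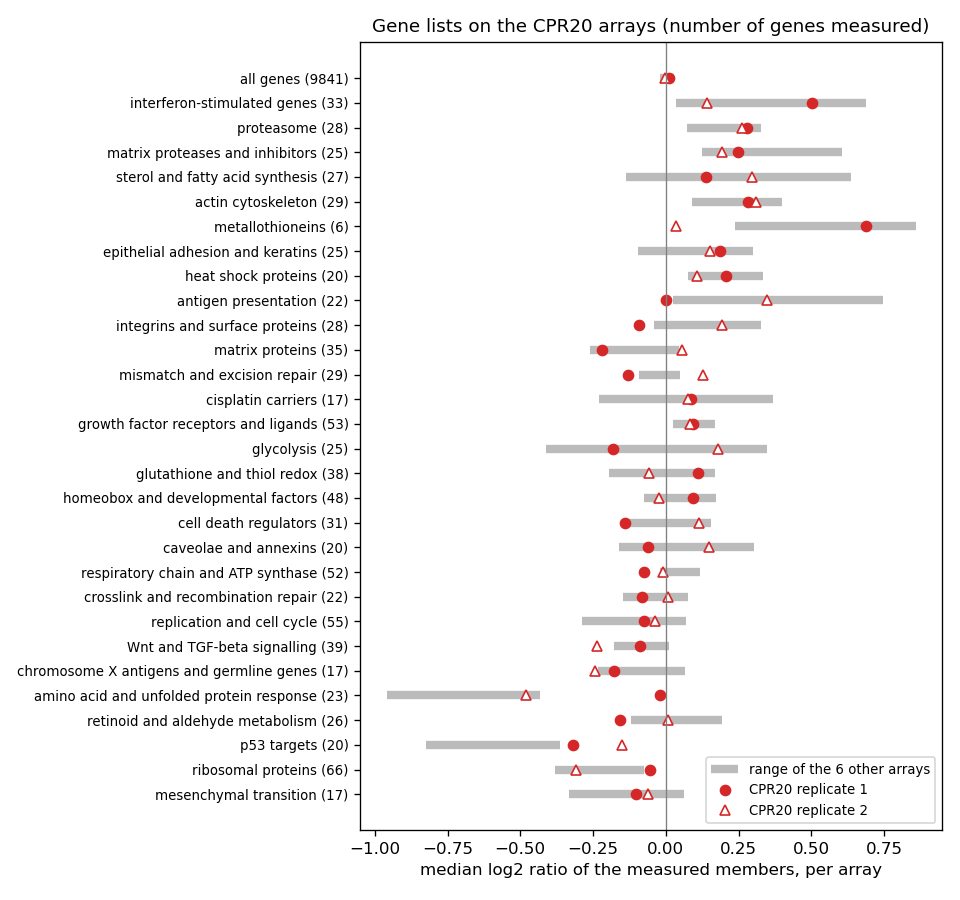
Median log2 ratio of each gene list on the replicate 1 array (filled circles) and the replicate 2 array (open triangles) of CPR20, with the number of genes measured, beside the range of medians on the 6 other arrays (grey bars). The amino acid response list stands at -0.02 and -0.48 and the p53 target list at -0.32 and -0.15, with other arrays at -0.96 to -0.43 and at -0.82 to -0.36.

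Several further called genes, named here after their values were seen, have known roles. UCP2, an uncoupling protein of the inner mitochondrial membrane, rose at least 2.44-fold (ratios 2.00 and 2.28, adjusted p = 0.0146 in limma). PEG10, an imprinted gene derived from a retrotransposon, rose at least 1.35-fold (2.14 and 1.96). DPP7, a lysosomal dipeptidase, rose at least 2.66-fold (1.38 and 2.35). ENO2, the neuronal enolase, was called through its dimmer clone (1.59 and 1.81, at least 2.19-fold), while its brighter clone stood at 1.91 and 1.93 with an adjusted p of 0.0679. RAB2A, which serves traffic between the endoplasmic reticulum and the Golgi, rose by 1.47 on the log2 scale. MAP3K14, the kinase of the alternative NF-kappaB pathway, rose by 1.35 and SH3GLB1, a membrane-bending partner of BAX, by 1.57.

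Among lower genes outside the rule, SNCG, the gamma synuclein, fell at least 2.48-fold (ratios -1.70 and -1.58, adjusted p = 0.0126 in limma). SLC5A6, the sodium-dependent carrier of biotin and pantothenate, fell by 1.54 (-1.56 and -1.52). STK24, a kinase of the sterile-20 family, fell by 1.24 (-1.24 and -1.24) and UPF3A, a factor of nonsense-mediated decay, by 1.41 (-1.37 and -1.45). Both CPR20 arrays stood close together for SNCG, SLC5A6, STK24 and UPF3A. BRS3, a bombesin receptor, was called at -2.92 from 1 CPR20 array with both channels at background, and no fold is given for it.

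Genes that the array lists without a function were among the calls with the smallest p. The hypothetical protein MGC3032 had ratios of 2.98 and 3.76 and rose by 3.37 (± 0.24, adjusted p = 0.00218 in limma), and MGC10905 had ratios of 2.61 and 2.31 and rose at least 4.63-fold (adjusted p = 0.00542). FLJ20128 had ratios of -3.36 and -3.0 and fell by 3.18 (± 0.21, adjusted p = 0.00145), a call kept without either CPR20 array. FLJ21007 fell by 1.99 with ratios of -2.34 and -1.65, and its other clone was at background in both channels. Of the called genes, 41 could be placed by their neighbours in the reference gene order among 7489 measured genes. None lay next to a called gene of the same direction, and the medians of the 3 measured genes on each side ran from -0.39 to 0.33, against -0.33 to 0.34 for the central 95% of all placed genes. Medians below that central range belonged to UPF3A (-0.39, from 3 neighbours), HAPLN1 (-0.39), STK24 (-0.36) and CDKN1A (-0.34), all of them called lower. A change of whole regions was not tested.

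The other 6 arrays were then set beside these calls. They share the parental RNA and the dye order with the CPR20 arrays, so a common sign can come from the parental channel or the dyes as well as from the derivatives, and it was not tested. All 6 other arrays had a value for 67 of the 68 called probes, and for 66 of the 67 all 6 values had the sign of CPR20 (98.51%). The same held for 2079 of 11115 probes of the whole array (18.7%). All 24 lower probes had it, and 42 of 43 higher probes. The exception was TM4SF1, which stood at -0.02 on the CPR40 replicate 2 array. TMSB10, which lacks a value on 1 array, was above 0 on the other 5.

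HAPLN1 stood at -4.81 and -4.14 in CPR40, -4.66 and -3.96 in CPR55 and -5.40 and -4.97 in CPR70, a range that encloses both CPR20 values. CAVIN2 stood at 4.93 and 5.03 in CPR40, 4.46 and 5.78 in CPR55 and 6.30 and 5.98 in CPR70, again around the CPR20 values. The called clone of CDKN1A stood between -3.37 and -1.14 on the 6 arrays, highest on the CPR55 replicate 2 array. The other, dimmer CDKN1A clone did not share the fall throughout. It stood at 0.13 on the CPR40 replicate 1 array, 0.75 on the CPR55 replicate 1 array, and 0.44 and -1.27 in CPR70. For the called clones of HAPLN1, CAVIN2 and CDKN1A the size of the fall or rise in the derivative of lowest number overlapped that in the others. FLJ20128 stood between -3.57 and -2.77, S100A11 between -3.97 and -2.89, ATF5 between -2.45 and -1.60 and PHLDA3 between -3.19 and -1.43 on the 6 arrays. Each of those ranges overlaps or encloses the CPR20 pair.

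Other shared calls differed more in size between derivatives. MID1 stood at 1.31 and 0.69 in CPR40, below both CPR20 arrays, at 3.47 and 1.87 in CPR55 and at 3.97 and 5.68 in CPR70. IGFBP3 stood at 0.43 and 1.07 in CPR40, 2.13 and 1.91 in CPR55 and 2.32 and 0.66 in CPR70. MMP10 stood at 1.92 and 3.21 in CPR40 and 2.86 and 2.39 in CPR55, but at 0.25 and 0.44 in CPR70. MGC10905 had the same shape, from 2.51 to 2.88 in CPR40 and CPR55 and at 0.52 and 1.08 in CPR70. The lowest values of MID1 and IGFBP3 were thus in CPR40 and those of MMP10 and MGC10905 in CPR70. SNCG stood at -2.92 and -3.12 in CPR40 and at -1.31 and -1.32 in CPR55, on either side of CPR20.

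**Figure D4:**
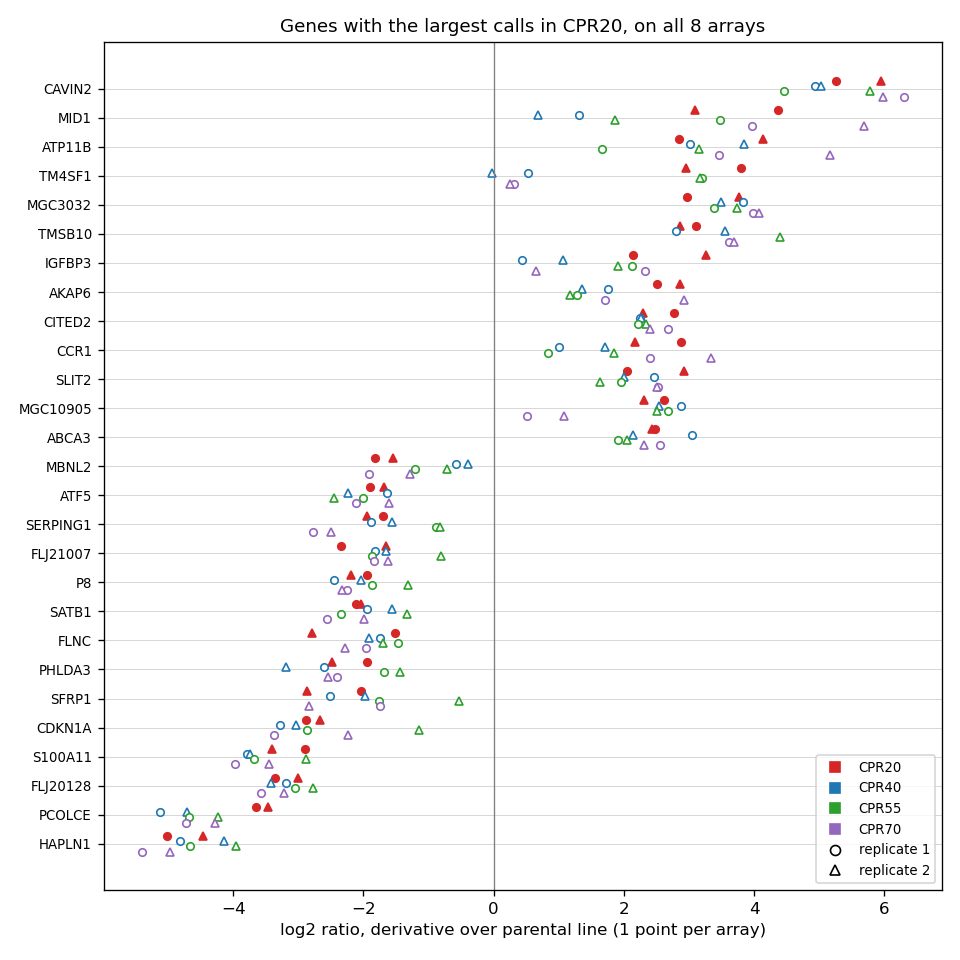
Log2 ratio of derivative over parental line on all 8 arrays for the largest rises and falls among genes called in CPR20, 1 symbol per array, with CPR20 filled in red. Values of the other derivatives lie on the same side of 0 except for TM4SF1 on the CPR40 replicate 2 array (-0.02), and those of TM4SF1 fall into a high set (CPR20, CPR55) and a set near 0 (CPR40, CPR70).

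Whether CPR20 differs from the other derivatives was tested in the same fit, as CPR20 minus the mean of CPR40, CPR55 and CPR70, in which the parental channel and any dye effect of a clone cancel. In this contrast 0 probes were called in limma (0% of 13186), and 336 had an unadjusted p under 0.05, 167 higher in CPR20 and 169 lower, with a smallest adjusted p of 0.99984. Single contrasts gave 0 calls each in limma, with 385 probes at an unadjusted p under 0.05 against CPR40, 393 against CPR55 and 260 against CPR70. All these counts are below a share of 0.05 of the probes, which p-values would give without any difference, so the tests were conservative. With the array set as a block, 654 probes had an unadjusted p under 0.05 for CPR20 minus the mean of the others, and 0 were called. No gene is therefore described as particular to CPR20. For 64 of the 68 called probes the CPR20 mean lay within 1 log2 unit of the mean of the other derivatives. The exceptions were TM4SF1, IGFBP3, PCOLCE and BRS3. The share of all probes within 1 log2 unit was not counted, so the 64 are not read as a result about the calls.

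No gene passed in that contrast, and the 3 with the smallest p are described by their values. TM4SF1 stood at 3.20 and 3.17 in CPR55, next to its CPR20 values, and at 0.52, -0.02, 0.32 and 0.25 on the CPR40 and CPR70 arrays. CPR20 minus the mean of the others was 2.14 (95% interval 1.46 to 2.81, not adjusted for the number of probes). The gene was high in CPR20 and CPR55 and near the parental level in CPR40 and CPR70, with no overlap between those pairs of derivatives. The difference was 3.13 against CPR40 (adjusted p = 0.325 in limma), 0.19 against CPR55 and 3.09 against CPR70 (adjusted p = 0.352).

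TMEFF2, a transmembrane protein with an EGF-like domain, stood at 1.65 and 1.21 in CPR20 and between -1.11 and 0.09 on the other 6 arrays. The difference was 1.76 (95% interval 1.01 to 2.50), with no overlap between CPR20 and the rest. TMEFF2 was not called against the parental line (adjusted p = 0.0949 in limma), and its parental channel was at background. CHMP4A, a subunit of the ESCRT-III membrane-cutting complex, stood at 0.55 and 1.15 in CPR20 and between 1.86 and 2.94 on the others. The difference was -1.65 (95% interval -2.37 to -0.93), so that both CPR20 arrays lay below all 6 others. These genes were picked as the extremes of 13186 probes, and the intervals do not allow for that choice.

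PCOLCE fell less in CPR20 than elsewhere, with -5.12 and -4.71 in CPR40, -4.67 and -4.23 in CPR55 and -4.72 and -4.27 in CPR70 beside -3.64 and -3.46. The difference was 1.07 (95% interval 0.46 to 1.68), and it did not pass adjustment. For HAPLN1, CAVIN2, CDKN1A and ATP11B the intervals of the difference include 0 but leave room for sizeable values of either sign. They ran from -0.83 to 0.66 for HAPLN1, from -0.68 to 1.05 for CAVIN2, from -1.22 to 0.99 for CDKN1A and from -1.27 to 1.49 for ATP11B. The intervals of IGFBP3 (0.17 to 2.39), AKAP6 (0.20 to 1.78), TMSB10 (-1.46 to -0.06) and MBNL2 (-1.30 to -0.03) do not include 0, and none of these differences passed adjustment.

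**Figure D5:**
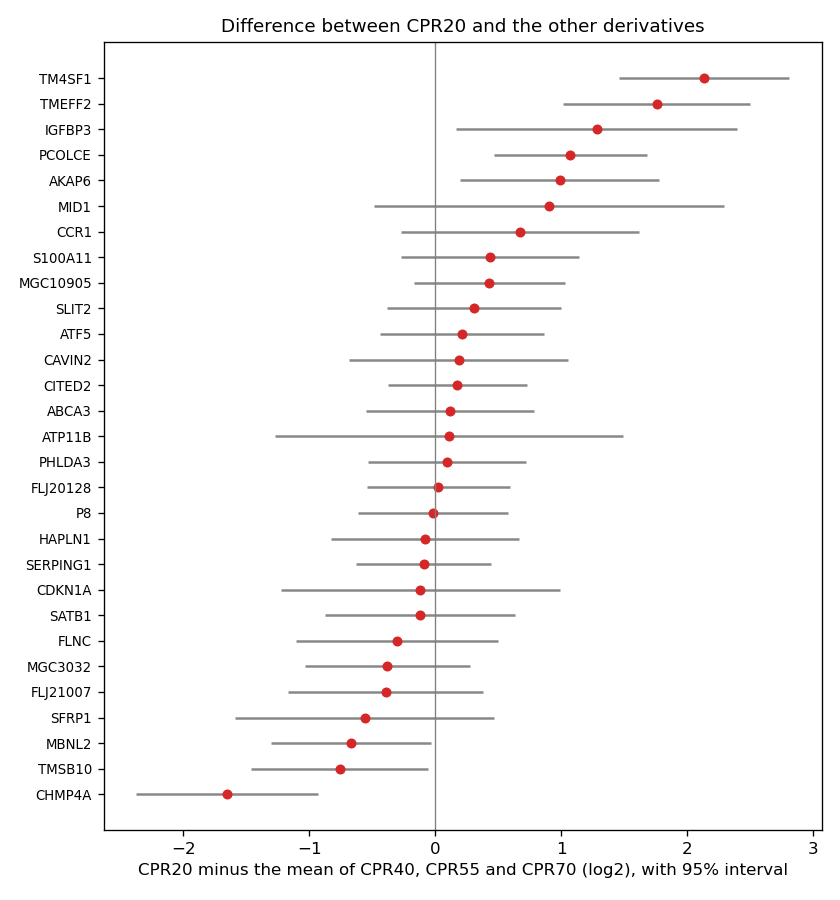
CPR20 minus the mean of CPR40, CPR55 and CPR70 on the log2 scale, with the 95% interval of the fit (not adjusted for the number of probes), for the largest calls of CPR20 and the 3 genes with the smallest p in this contrast. TM4SF1 and TMEFF2 stand at the top and CHMP4A at the bottom, and no gene passed after adjustment over 13186 probes.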

How the data were processed

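Expression was measured on 2-colour spotted cDNA arrays. The authors' deposited table gives a Cy5 and a Cy3 intensity per spot, on a linear scale, and a spot area (another kind of measure, with no unit stated), per the file headers. It also holds the authors' calibrated ratio, which recomputation shows to be red over green times 1 constant per array (0.557 and 0.698 for CPR20). The deposited log2 values equal the log2 of that ratio and are not centred (CPR20 medians -0.44 and 0.10). Scanner, image software and background treatment are not given in the sources used here. The table also has 8 value columns of 2 arrays that no label describes, which were not used.

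Values of spots not found (area 0) were treated as missing, 50 was added to each intensity, and log2 ratios of derivative over parental line were normalised by loess within each array with limma 3.58.1 in R 4.3.3, with 933 control spots given no weight. Spots were averaged per clone. Clones needed a value on 1 or more arrays of every derivative (13186 kept, 154 left out), and a gene was represented by its brightest clone. Of 9962 symbols, 5427 were current in RefSeq genes of GRCh38.p14 and 2157 were older names; the rest stayed as listed. Means of 4 derivatives were fitted (4 residual degrees of freedom, 3.92 from the prior), and p-values were adjusted over all probes. Errors are standard errors, and precision is limited by the number of arrays. The fit was tested on simulated data, where it recovered 28.4% of changes of 1 log2 unit (19 of 67). It recovered 94% of changes of 2 log2 units and 100% of those of 3, with 8 false calls. A list with 0 calls can therefore hold changes of about 1 log2 unit. It can also hold larger ones, since these shares hold only for the spread of the simulated data. On the measured arrays CLDN16 (3.35 ± 0.60, adjusted p = 0.0750 in limma) and SNAI2 (-2.24 ± 0.47, adjusted p = 0.109) were not called.

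Genes named are the 14 largest rises and falls among calls, up to 4 members of each list by p, all cisplatin carriers and metallothioneins, and the 3 smallest p where fewer than 3 passed; some picked by these rules are left out of the text. The gene lists and rules were chosen with earlier results of these data known, and so was the comparison itself. The replicate numbers mark array sets: deviations of same-numbered arrays from their derivative's mean correlated at 0.23 to 0.36 over the 6 pairs of derivatives, so the numbers were taken to pair the arrays, and values with the replicate number as a block are given beside the genes and lists described where they change a call. Alternatives covered the offset, normalisation, scaling, a filter on dim probes, the block, weights and prior, the deposited ratio, and leaving out each array.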

Additional observations from a re-analysis of the deposited data

Results flagged for a closer look

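Among the genes picked by the naming rules, some had both CPR20 arrays on one side of 0 and both arrays of another derivative on the other side. How often this occurs over the whole array was not counted, so the number of such genes is not read as a result. The difference between the derivatives was tested in limma for each, and none passed (smallest adjusted p = 0.999, for ANXA1). TMEFF2, a transmembrane protein with an EGF-like domain, stood at 1.43 in CPR20 against -0.45 in CPR40 and -0.57 in CPR55. ANXA1, a membrane-binding annexin, stood at 1.34 against -0.94 in CPR70, a gap of 2.28. The cyclin CCND1 stood at -0.87 against 0.58 in CPR55. The copper-exporting ATPase ATP7A stood at 0.50 against -0.53 in CPR40, with both CPR20 channels at background.

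The remaining gaps were smaller. RPA1, a subunit of the single-strand DNA binding complex, stood at 0.61 against -0.23 in CPR55, and RAD50, of the double-strand break complex, at -0.76 against 0.08 in CPR70. The ATP synthase subunit ATP5MC1 stood at -0.42 against 0.06 in CPR40. The drug exporter ABCG2 stood at 0.22 against -0.26 in CPR40 and -0.11 in CPR70. The metallothionein MT3 stood at 0.11 against -0.27 in CPR70, from a list in which 5 of 6 genes had both CPR20 channels at background.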

How the results depend on the processing

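All called probes that an alternative tested kept their direction in it, but their number depended on the processing. The 68 calls, 66 of them shared by all 6 other arrays, became 36 (34 shared) with an offset of 16, 33 (30) with an offset of 1, 16 (14) with median centring, 108 (100) with scaling between arrays, 197 (186) with a filter on dim probes and 169 (155) with the replicate block. With only the CPR20 arrays in the fit they became 199 (156), with replicate 1 arrays alone 0 (0), with replicate 2 arrays alone 1 (0; PLCG1 at -5.51), and with the deposited calibrated ratio, whose median lay 0.19 lower, 0 (0); the unadjusted p under 0.05 gave 1282. The cause of these shifts was not tested. Leaving out 1 array gave 5 to 74 calls (4 to 71 shared): 19 without CPR20 replicate 1, 5 without CPR20 replicate 2, and 44 without either CPR70 array. In these a lone array is assumed to vary like the others. The difference from the other derivatives gave 0 to 2 calls, the 2 without CPR20 replicate 1 (PLCG1 at -5.40 and SNX4 at -5.22). Under the replicate block it gave 0 in limma (654 at an unadjusted p under 0.05). Of the 68 calls, 3 were lost under the block: IGFBP3, SFRP1 and a clone without a symbol (810980, adjusted p = 0.0505).

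Among the 32 named genes that were called, 496 of 733 alternative values stayed past the threshold and 237 did not. For results on named genes that were not called, 111 of 2644 alternative values passed the threshold. A further 28 values changed sign. They are MT1E (-0.061), ABCC4 (0.066), ABCC2 (0.069) and SLC22A2 (-0.16) with median centring; MT1E (-0.22), MT1H (-0.041), SLC19A1 (-0.054) and SLC22A2 (-0.30) with the deposited ratio; MRE11 (-0.051), ABCG2 (-0.25) and MTF1 (0.22) with the mean of all clones; MT1H (-0.098) and MTF1 (0.48) with replicate 1 arrays alone; and MT1E (-0.60), ABCC4 (0.053), SLC31A2 (-0.092), ABCC2 (0.0087), ATP7B (0.016) and ABCC3 (0.075) with replicate 2 arrays alone. Leaving out 1 array gave ranges across 0 for MT1G (-0.13 to 1.30), MT1E (-0.60 to 1.15), MT1H (-0.098 to 0.41), MTF1 (-0.56 to 0.48), ABCC4 (-0.29 to 0.053), SLC31A2 (-0.092 to 0.15), ABCC2 (-0.078 to 0.0087), ATP7B (-0.29 to 0.016) and ABCC3 (-0.65 to 0.075). Of 780 list medians 150 moved by more than the spread. Loess within print blocks was not run, since the table used here gives no blocks. On the CPR20 arrays 33.9% to 55.1% of clone spots stood above background in a channel, which limits folds to lower bounds for dim probes.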
